A study of Mus musculus with 2 samples.

Results

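The Mir30 family of microRNA genes was followed in the gastrocnemius, a large hindlimb muscle of the calf, of adult male mice. Its 6 members, Mir30a, Mir30b, Mir30c-1, Mir30c-2, Mir30d and Mir30e, were chosen by gene name among the 2202 microRNA genes of the count tables and grouped into 3 loci. The mice were 18 to 20 months old and of strain B6CASTF1/J, the first-generation offspring of C57BL/6J and CAST/EiJ parents. The labels gave 1 group of 2 small RNA libraries (replicates 2 and 1, inserts under 30 nt), with no treatment and no second tissue, so the comparison within reach was that of one library with the other. The libraries came from separate biosamples with the same donor entry, and nothing stated that these were separate animals. P-values therefore compare only these samples, and the spread between them may be technical.

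A microRNA gene encodes a hairpin from which the enzymes Drosha and Dicer release a pair of short RNAs, one from the 5′ side (5p) and one from the 3′ side (3p). The RNA that is loaded into an Argonaute protein finds its target messages mainly through its seed, bases 2 to 8. Members of the Mir30 family are broadly expressed in mammals, and their 5p RNAs are known as regulators of adipocyte differentiation, of cell death and, in human cells, of the autophagy gene BECN1. The Mir30a hairpin is also the scaffold on which many artificial short hairpin RNAs are built.

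The mature RNAs show which members can be told apart by a short read. Listed RefSeq sequences (GRCm38.p6) covered 4 of the 6 members, and the seed is in capitals below. The 5p RNAs come first because they carry the family's seed.
mmu-miR-30a-5p: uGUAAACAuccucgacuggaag
mmu-miR-30e-5p: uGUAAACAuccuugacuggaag
mmu-miR-30c-5p: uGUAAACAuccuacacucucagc
mmu-miR-30a-3p: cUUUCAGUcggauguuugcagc
mmu-miR-30e-3p: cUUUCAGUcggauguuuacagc
mmu-miR-30c-1-3p: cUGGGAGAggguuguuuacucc
mmu-miR-30c-2-3p: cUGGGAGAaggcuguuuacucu

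All 5p RNAs of these 4 members had the seed GUAAACA, and among the 1679 mature RNA names in the table it occurred outside the family in mmu-miR-384-5p only. The 3p RNAs fell into a pair of seed groups, UUUCAGU for Mir30a and Mir30e and UGGGAGA for the Mir30c genes, and Mir6958 was the other gene with the second of these. Counting positions from 1 at the 5′ end, mmu-miR-30a-5p and mmu-miR-30e-5p differed by the single substitution C13U, and their 3p RNAs by G18A. Mmu-miR-30c-5p had the substitutions C13A, G14C, G18C, G19U and A20C against mmu-miR-30a-5p over the 22 bases compared. The 5p RNA of Mir30c-1 and Mir30c-2 was identical over all its 23 bases, and the hairpins shared a stretch of 28 bases that holds it. Their 3p RNAs differed by G9A, U12C and C22U, so a read of the 3p arm can tell the Mir30c genes apart and a read of the 5p arm cannot.

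Positions are 1-based on mm10, with GENCODE M21 annotation. The first locus was on the plus strand of chromosome 1, with Mir30a (ENSMUSG00000065405.3) at chr1:23272269-23272339, where no other gene is annotated, and Mir30c-2 (ENSMUSG00000065567.1) at chr1:23291701-23291784, within an exon of the long noncoding RNA Gm27028. These genes were 19.4 kb apart. The second locus was on the minus strand of chromosome 15, with Mir30b (ENSMUSG00000065476.2) at chr15:68337415-68337510 and Mir30d (ENSMUSG00000065437.1) at chr15:68341208-68341289, 3697 bases apart. Mir30b overlapped an exon of the noncoding transcript Gm26621, and Mir30d overlapped exons of Gm37296 and of the long noncoding RNA Gm20732. The last locus was on the minus strand of chromosome 4, where Mir30c-1 (ENSMUSG00000065490.1) at chr4:120769534-120769622 and Mir30e (ENSMUSG00000065409.1) at chr4:120772606-120772697 lay 2983 bases apart in an intron of Nfyc, which encodes a subunit of the CCAAT-binding factor NF-Y. Mir30f was annotated at the same coordinates as Mir30e on the opposite strand.

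Reads assigned to any microRNA gene numbered 2156222 in replicate 2 and 4442692 in replicate 1, which was 2.06-fold deeper. CPM are counts scaled to a common total of assigned counts. A gene with 0 counts could still have reached 1.39 CPM in replicate 2 or 0.675 CPM in replicate 1, by counting error only. Reads that mapped to several places were 70.2% of all reads in replicate 2 and 73.8% in replicate 1, and they were not part of the gene counts. The 9 microRNA genes listed as skeletal muscle markers were all at 2 CPM or more in both libraries, with a summed level of 65700.1 CPM in replicate 2 and 16413 CPM in replicate 1, most of it Mir206 (61540.0 CPM in replicate 2 and 11810.0 CPM in replicate 1). Of these 9 genes, 3 were higher in replicate 2 (Mir206, Mir499 and Mir208b), 4 were lower (Mir1a-1, Mir1a-2, Mir133b and Mir486) and 2 did not pass the binomial test described with the comparison of the libraries, so the sum does not stand for the list. All marker levels count uniquely mapped reads only, so a gene that shares its mature RNA with another gene can be undercounted. The order of the markers by these levels therefore need not be that of their mature RNAs. Markers of endothelium (Mir126a, 55386 CPM in replicate 2 and 104418 CPM in replicate 1) and of smooth muscle and mural cells (56840.2 and 48844 CPM in replicates 2 and 1) were also high. The part of these cell types in the levels of the Mir30 genes was not tested. In whole tissue, fewer cells of a type and less RNA per cell cannot be told apart. The summed lists of the other cell types were lower than these but differed between the libraries in both directions. The liver marker Mir122 had 396 CPM in replicate 2 and 13.3 CPM in replicate 1, the erythroid list 109 and 777 CPM, the stromal list 416 and 1654 CPM, and the leukocyte list 3632 and 2285 CPM, in replicates 2 and 1. The epithelial list had 225 CPM in replicate 2 and 205 CPM in replicate 1, and the neural list 50.1 and 13.3 CPM. No count was found for 1 stromal and 5 neural markers (Mir199a-1, Mir9-1, Mir9-2, Mir124a-1, Mir124a-2 and Mir124a-3). Since only uniquely mapped reads were counted, a count of 0 does not show that the mature RNA was absent. By the same binomial test, 2 leukocyte genes were higher in replicate 2 (Mir150 and Mir155) and 2 were lower (Mir142 and Mir223). In the epithelial list 1 gene was higher (Mir203) and 3 were lower (Mir200b, Mir429 and Mir205). The sums of these lists do not stand for their members either.

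The family took 4.38% ± 1.14 of assigned counts (SD, n = 2), and nearly all of it came from 3 genes, 1 at each locus. It held 3.57% of counts in replicate 2 (Wilson 95% interval 3.54 to 3.59) and 5.18% in replicate 1 (5.16 to 5.21). Mir30a, Mir30d and Mir30e together made up 97.2% of the family's counts in replicate 2 and 98.4% in replicate 1. Reads that fit both Mir30c genes are not in the counts, so these shares cover uniquely mapped reads only. All 6 members were at 2 CPM or more in both libraries and all 6 passed the filter of 10 counts.

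Mir30a was the most abundant member and stood 12th among all microRNA genes by mean level. It had 47005 counts in replicate 2 and 143786 in replicate 1, which is 21799.7 CPM (rank 14) in replicate 2 and 32365 CPM (rank 7) in replicate 1, or 27082 ± 7471 CPM (SD, n = 2). Mir30a was thus lower in the shallower library. By mean level Mir26b (35380 ± 10006 CPM) and Mir99a (33058 ± 1300.4 CPM) stood directly above it and Mirlet7b (24525 ± 8981 CPM) and Mirlet7d (20728 ± 6929 CPM) directly below, and the values of each over the libraries overlapped those of Mir30a.

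Mir30d followed with 17586 counts in replicate 2 and 52949 in replicate 1, or 8156 and 11918 CPM in replicates 2 and 1 (10037 ± 2660.3 CPM, SD, n = 2). Mir30e, in the Nfyc intron, had 10190 counts in replicate 2 and 30011 in replicate 1, or 4726 CPM in replicate 2 and 6755 CPM in replicate 1 (5740.5 ± 1435 CPM). These genes and Mir30a were each lower in replicate 2 by a similar factor.

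The remaining 3 members had lower levels than these in both libraries, counted by uniquely mapped reads. Mir30c-2, downstream of Mir30a, had 1532 counts in replicate 2 and 1845 in replicate 1, or 711 CPM in replicate 2 and 415 CPM in replicate 1 (563 ± 209 CPM, SD, n = 2). Mir30b, the neighbour of Mir30d, had 446 counts in replicate 2 and 1547 in replicate 1, or 207 and 348 CPM in replicates 2 and 1 (278 ± 99.96 CPM). Mir30c-1, the neighbour of Mir30e, had 192 counts in replicate 2 and 199 in replicate 1, or 89.0 CPM in replicate 2 (77.3 to 103) and 44.8 CPM in replicate 1 (39.0 to 51.5, Wilson 95% intervals). Both Mir30c genes were thus higher in replicate 2, against the direction of the other 4 members.

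**Figure D1:**
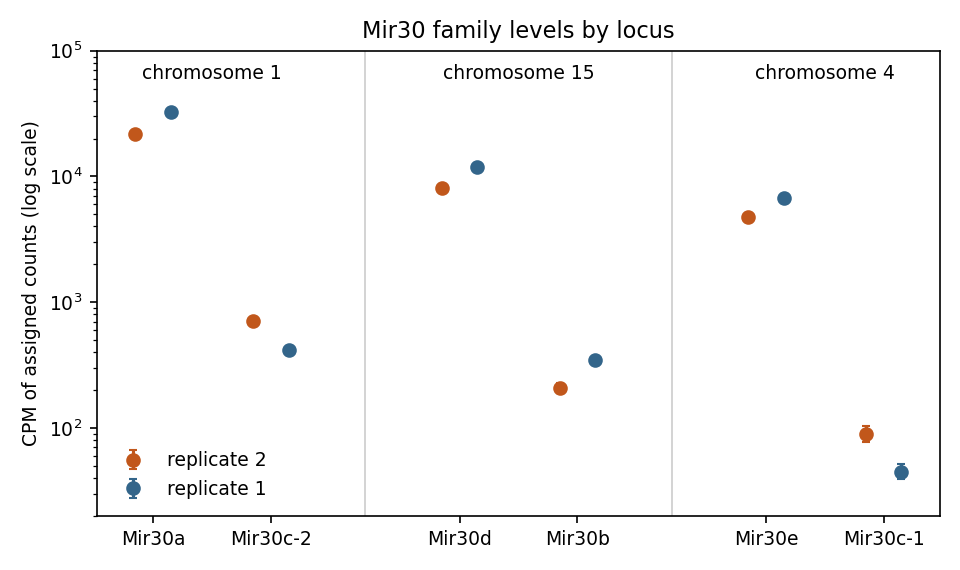
Level of each Mir30 gene in CPM on a log axis, grouped by locus, for replicate 2 (left point) and replicate 1 (right point), with Wilson 95% intervals of the counts. Mir30a, Mir30d, Mir30e and Mir30b were lower in replicate 2, while Mir30c-2 (711 against 415 CPM) and Mir30c-1 (89.0 against 44.8 CPM) were higher in replicate 2.

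The order of the levels was Mir30a, Mir30d, Mir30e, Mir30c-2, Mir30b and Mir30c-1 in both libraries. Reads that fit both Mir30c genes are not in these levels. Mir30a exceeded Mir30d 2.67-fold in replicate 2 and 2.72-fold in replicate 1, and Mir30d exceeded Mir30e 1.73-fold and 1.76-fold in replicates 2 and 1. Further down the steps were less even. Mir30e exceeded Mir30c-2 6.65-fold in replicate 2 and 16.3-fold in replicate 1, Mir30c-2 exceeded Mir30b 3.43-fold and 1.19-fold, and Mir30b exceeded Mir30c-1 2.32-fold and 7.77-fold, in replicates 2 and 1. No neighbours in this order overlapped between the libraries, and with 2 libraries an exact two-sided sign-flip test of such a ratio cannot give a p under 0.5. A read stands for a whole short RNA, so levels were not divided by length, and dividing mean CPM by the length of the gene (71 to 96 bases) left the order of the means as it was.

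In uniquely mapped reads, the balance between the loci was nearly the same in both libraries. The Mir30a/Mir30c-2 locus held 63.1% of the family's counts in replicate 2 (Wilson 95% interval 62.7 to 63.4) and 63.2% in replicate 1 (63.0 to 63.4). The Mir30b/Mir30d locus held 23.4% (23.1 to 23.7) in replicate 2 and 23.7% (23.5 to 23.8) in replicate 1. The Mir30c-1/Mir30e locus held 13.5% (13.3 to 13.7) in replicate 2 and 13.1% (12.98 to 13.3) in replicate 1. The intervals of the libraries overlapped for each locus, but overlap is not a test of no difference. For Mir30c-1/Mir30e they only just met, with a lower bound of 13.252 in replicate 2 and an upper bound of 13.254 in replicate 1. The family as a whole differed 1.36-fold after scaling. Summed per locus, the log2 ratios of replicate 2 over replicate 1 were −0.45, −0.46 and −0.40 in the same order of loci.

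**Figure D2:**
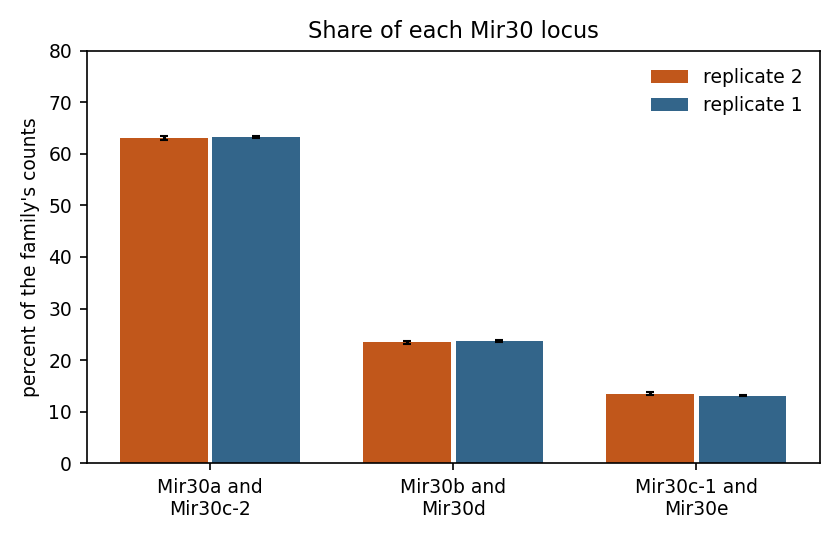
Share of each Mir30 locus in the family's counts, in percent, for replicate 2 and replicate 1, with Wilson 95% intervals as error bars. The shares were 63.1% and 63.2%, 23.4% and 23.7%, and 13.5% and 13.1% in replicates 2 and 1.

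Within the loci the libraries differed more. Mir30c-2 made up 3.16% of the counts of its locus in replicate 2 (Wilson 95% interval 3.004 to 3.32) and 1.27% in replicate 1 (1.21 to 1.33), so Mir30a exceeded it 30.7-fold in replicate 2 and 77.9-fold in replicate 1. Mir30c-1 made up 1.85% of its locus in replicate 2 (1.61 to 2.13) and 0.659% in replicate 1 (0.574 to 0.756), so Mir30e exceeded it 53.1-fold and 151-fold in replicates 2 and 1. Mir30b made up 2.47% of its locus in replicate 2 (2.26 to 2.71) and 2.84% in replicate 1 (2.703 to 2.98). These intervals only just overlapped, and whether the shares differ was not tested. Mir30d exceeded Mir30b 39.4-fold and 34.2-fold in replicates 2 and 1. At each locus 1 gene held over 96% of the counts in both libraries. These counts leave out reads that fit both Mir30c genes, so the gaps to Mir30c-1 and Mir30c-2 hold for uniquely mapped reads only.

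Replicate 2 against replicate 1 asks how far the levels of these genes differed between samples with the same labels. All 6 members passed an adjusted p of 0.05 in an exact two-sided binomial test on the counts with Benjamini-Hochberg adjustment over the 380 genes with 10 or more counts, where 61.8% of all genes tested passed. The least certain member, Mir30c-1, had an adjusted p of 9.76e-13. The test takes only counting error into account and compares these libraries, not conditions. Of the members, 4 passed as lower in replicate 2, as did 31.6% of all genes tested, and 2 passed as higher, as did 30.3%. Of the members 1, Mir30c-1, differed at least 2-fold, as did 31.6% of all genes tested, and with plain library totals it was under 2-fold at a log2 ratio of 0.98. The median absolute log2 ratio was 0.57 for the members and 0.65 for all genes tested, and the SD of the log2 ratios over the 228 genes with 100 or more counts was 1.13, so the members lay inside the common spread between these libraries.

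Log2 ratios were computed on CPM + 1 with TMM scaling, a correction of library totals for composition that shifted ratios by 0.0932 against plain totals. The log2 ratio of replicate 2 over replicate 1 was −0.48 for Mir30a (exact 95% counting interval −0.49 to −0.46). It was −0.45 for Mir30d (−0.48 to −0.43) and −0.42 for Mir30e (−0.45 to −0.39). The 3 abundant genes, each from another chromosome, thus lay within 0.0548 of each other on the log2 scale. Relative to their own sum, Mir30a held 62.9% in replicate 2 and 63.4% in replicate 1, Mir30d 23.5% and 23.4%, and Mir30e 13.6% and 13.2%.

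Of the low members, Mir30b had a log2 ratio of −0.66 (−0.81 to −0.51). Mir30c-2 had 0.87 (0.77 to 0.97), a 1.82-fold higher level in replicate 2, and Mir30c-1 had 1.07 (0.79 to 1.38), a 2.10-fold higher level in replicate 2. The Mir30c genes lay on different chromosomes and differed from each other by 0.20. Their counting intervals overlapped, though the value of Mir30c-1 lay above the interval of Mir30c-2. From the members of their own loci the Mir30c genes differed by 1.34 (Mir30c-2 against Mir30a) and 1.49 (Mir30c-1 against Mir30e). Mir30b and Mir30d differed by 0.20, and their counting intervals did not meet (upper bound −0.51 for Mir30b, lower bound −0.48 for Mir30d).

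**Figure D3:**
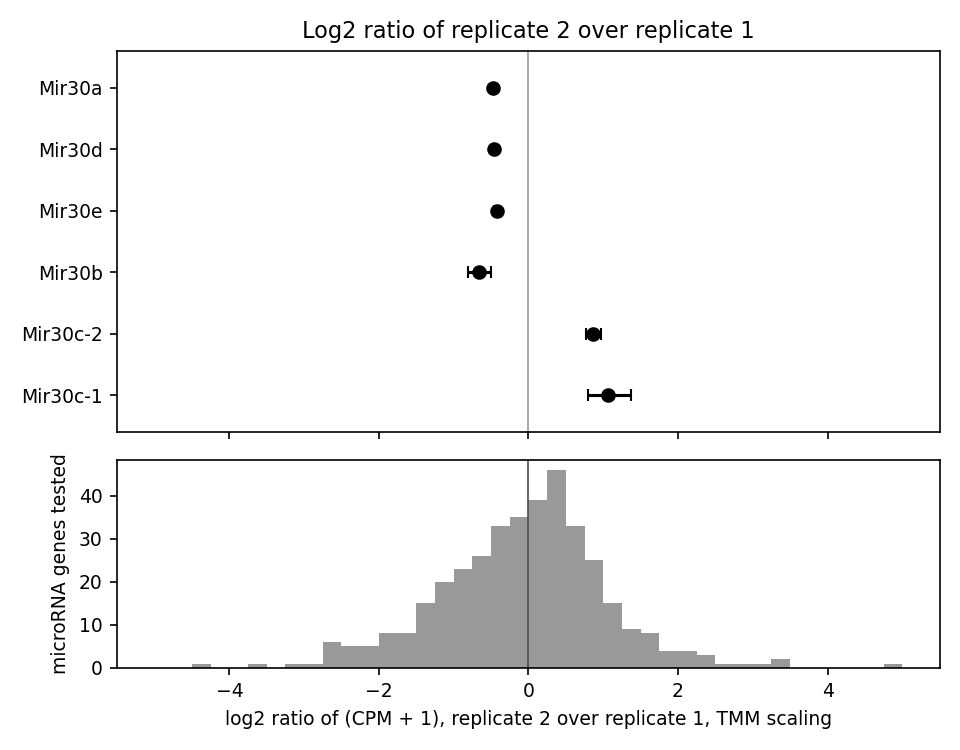
Upper panel, log2 ratio of replicate 2 over replicate 1 on CPM + 1 with TMM scaling for each Mir30 gene, with exact 95% counting intervals. Lower panel, the same ratio for the 380 microRNA genes tested, as a histogram of genes, in which the members' values from −0.66 to 1.07 lay near the middle.

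These distances were set beside those of other gene pairs with 100 or more counts for both genes, a comparison chosen after the values were seen. Neighbouring microRNA genes on the same strand with at most 20 kb between them formed 60 pairs outside the family, whose log2 ratios differed by a median of 0.66 (quartiles 0.37 and 1.09). Of these, 9 differed by at least as much as Mir30a and Mir30c-2, 7 by at least as much as Mir30c-1 and Mir30e, and 50 by at least as much as Mir30b and Mir30d. Genes with an identical listed mature RNA formed 12 pairs outside the family, with a median difference of 0.83 (quartiles 0.24 and 1.77), and 9 of them differed by at least as much as Mir30c-1 and Mir30c-2.

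**Figure D4:**
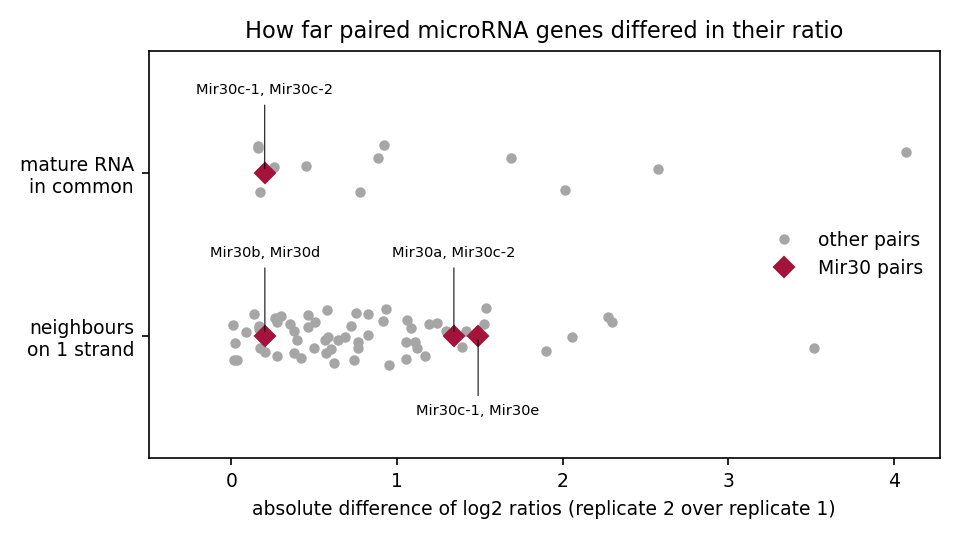
Absolute difference between the log2 ratios (replicate 2 over replicate 1) of paired microRNA genes, for neighbours on the same strand and for genes with a mature RNA in common, with Mir30 pairs as diamonds and other pairs as grey points spread vertically for legibility. Mir30a and Mir30c-2 (1.34) and Mir30c-1 and Mir30e (1.49) lay beyond the upper quartile of 1.09 of other neighbours, and Mir30b and Mir30d (0.20) lay below the lower quartile of 0.37.

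Both Mir30c levels are bounded by how the reads were counted. Since mmu-miR-30c-5p is the same RNA from both genes, a read of it fits both hairpins, and reads that map to several places were kept out of the gene counts. The summed level of the Mir30c genes, 799.5 CPM in replicate 2 and 460.1 CPM in replicate 1, does not include such reads. The tables do not separate the arms, so the part of the Mir30c counts that comes from the 3p RNAs was not tested. The share of multimapping reads also differed between the libraries (70.2% in replicate 2 and 73.8% in replicate 1), and its part in the Mir30c ratios was not tested. Outside the family, the 40 genes tested whose mature RNA was whole in another listed hairpin had a median log2 ratio of −0.01 (quartiles −0.62 and 0.73), and the 298 without such a copy had −0.04 (−0.82 and 0.53). A further 38 genes tested, Mir30b and Mir30d among them, had no listed mature sequence and were in neither group. Copies in hairpins that are not listed would be missed, so the 298 genes may include some with a copy.

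Mir30e depended on the strand of the counts. All of its reads were on its own strand, with 10190 counts in replicate 2 and 30011 in replicate 1, and Mir30f on the other strand had 0 counts in both libraries, which allows at most 1.39 CPM in replicate 2 and 0.675 CPM in replicate 1. The mature mmu-miR-30f is the reverse complement of a stretch of the Mir30e hairpin, so without strand these reads are ambiguous and Mir30e had 0 counts. The other 5 members had the same counts with and without strand and none on the opposite strand. Outside the family, Mir384, which shares the 5p seed, was near the limit of detection, with 14 counts in replicate 2 and 5 in replicate 1 (6.49 and 1.13 CPM), and Mir6958, which shares the seed of the Mir30c 3p RNAs, had 7 and 9 counts in replicates 2 and 1.

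The Mir30 family was set beside 4 other gene sets with several loci, called families here. By mean share the Mir30 family stood above the mir-26 and mir-29 genes and below the other 2. The let-7 family, regulators of developmental timing, took 19.04% of assigned counts in replicate 2 and 13.02% in replicate 1. The mir-23/27/24 genes, grouped by their clusters and not by a shared seed, took 10.4% and 6.54% in replicates 2 and 1. The mir-26 genes, in introns of the Ctdsp phosphatase genes, took 4.27% in replicate 2 and 2.85% in replicate 1, and the mir-29 genes, known for repressing collagen messages, 1.34% and 2.09%. The Mir30 and mir-29 families had lower shares in replicate 2 and the other 3 families had higher ones, so the Mir30 family stood above the mir-26 genes in replicate 1 and below them in replicate 2. The leading gene held 61.1% of the Mir30 family's counts in replicate 2 and 62.4% in replicate 1. The same share was 90.03% and 81.4% for Mir29a, 51.7% and 45.7% for Mir23a, 32.1% and 33.8% for Mirlet7g, and 99.5% and 99.4% for Mir26b, in replicates 2 and 1. These families also hold genes with a mature RNA in common, among them Mir26a-1 and Mir26a-2, Mir29b-1 and Mir29b-2, Mir24-1 and Mir24-2, and several let-7 genes. Reads that fit several such genes are not in the counts, so these shares cover uniquely mapped reads only. The differences between families were not tested.

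**Figure D5:**
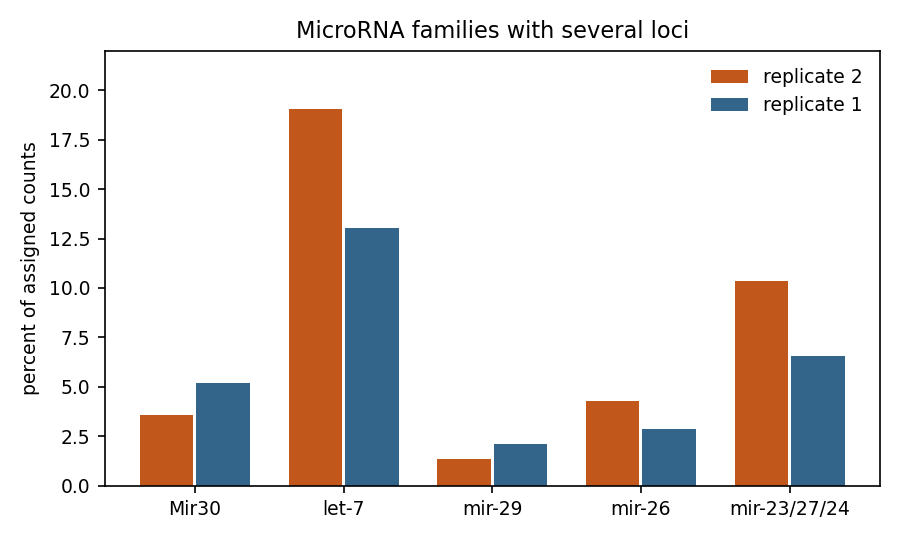
Share of assigned counts in percent for the Mir30 family and 4 other microRNA families with several loci, for replicate 2 and replicate 1. The Mir30 (3.57% and 5.18%) and mir-29 (1.34% and 2.09%) families were lower in replicate 2, and the other 3 were higher in replicate 2.

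The genes whose ratio was nearest to the family's were sought among the 40 most abundant other genes, with the absolute difference of log2 ratios over the 2 libraries as the measure. For the family sum (log2 ratio −0.45) these were Mir29a (−0.40), Mir423 (−0.51) and Mir125a (−0.35), and the same 3 genes were nearest to Mir30a, Mir30d and Mir30e. Mir423, Mir126a (−0.82) and Mir29a were nearest to Mir30b. Mirlet7b (0.86), Mirlet7d (0.79) and Mir139 (0.96) were nearest to Mir30c-2, and Mir145a (0.999), Mir23a (0.99) and Mir139 to Mir30c-1. A ratio over 2 libraries is a single value per gene.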

How the data were processed

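For each library the authors deposited a table of raw read counts by microRNA gene, made on mm10 with annotation M21 according to the accompanying readmes. Which aligner, adapter trimming and counter they used is not given in the sources used here. Judged from their values, the 3 columns count reads on either strand, on the strand of the gene (used here) and on the opposite one. The first 4 rows hold reads not assigned to a single gene (unmapped, mapped to several places, in no gene or ambiguous). Those rows stayed out of totals. They held 80.2% of reads in replicate 2 and 84.3% in replicate 1, and 19.8% and 15.7% were assigned.

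CPM used assigned totals. Log2 ratios used CPM + 1 and edgeR's TMM over genes with 10 or more summed counts. The test was exact binomial, since 1 group of 2 libraries leaves edgeR's quasi-likelihood test no residual degrees of freedom. It was tried on simulated counts with counting error only and known library totals, which cannot show how it behaves with variation between samples. Intervals cover counting error only. All gene identifiers matched GENCODE M21, and 4 of 6 members matched RefSeq's microRNA sequences (GRCm38.p6). Named genes were the members, seed sharers, neighbours within 10 kb, the 3 most alike genes, the 2 ranked on either side of Mir30a, leading genes of 4 families and markers. Mir6958 and the pairs of genes were added after values were seen. The members and lists were chosen with earlier results of these data known. Alternatives were strand, totals, scaling, filter, pseudocount, members and each library alone. The tools were R 4.3.3, edgeR 4.0.16, DESeq2 1.42.0 (size factors only), and Python 3.11.15 with scipy 1.17.1, pandas 2.3.3, matplotlib 3.10.9 and numpy 2.4.6.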

Additional observations from a re-analysis of the deposited data

Results flagged for a closer look

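Counts appeared in the opposite-strand column, which no comparison above uses. Mir30f had 10190 opposite-strand counts in replicate 2 and 30011 in replicate 1, above the limit that a count of 0 allows, and these equal the counts of Mir30e on its own strand. No group had the 4 samples that a search for outlying samples needs, and 1 group allows no difference between groups.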

How the results depend on the processing

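All 6 members kept the direction of their log2 ratio and stayed past the threshold with plain totals and DESeq2's size factors, and 5 of 6 did with counts without strand, where Mir30e had 0 counts. Directions also held with pseudocounts of 0.1 and 5 CPM, which the test does not use. By a difference of 2-fold or more in place of the adjusted p, 1 of 6 members and 120 of all genes were called, against 6 and 235. Chosen after seeing the data, the 2-fold rule gave 0 members and 123 genes with plain totals (Mir30c-1 fell under it) and 1 member and 121 genes with DESeq2's size factors. Other filters gave 6 members, and 212 to 237 genes of all with filters of 1 and 50 counts or other scaling. Against plain totals, TMM moved ratios by 0.13 with a filter of 50 counts and by −0.053 with none. The family's share was 6.04% with totals without the 2 most abundant genes, 0.76% of all reads, 5.29% without strand and 3.57% to 5.18% in the single libraries. Without strand the loci held 72.7% (Mir30a/Mir30c-2), 27.1% (Mir30b/Mir30d) and 0.193% (Mir30c-1/Mir30e), since Mir30e had 0 counts. With both Mir30c genes left out the first 2 held 62.7% and 23.9%, by construction. Single libraries gave 63.1% to 63.2%, 23.4% to 23.7% and 13.1% to 13.5%. No paired analysis was possible because there is 1 group. Depth limits Mir30c-1, with 192 and 199 counts in replicates 2 and 1, and Mir384.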
